A study of Mus musculus with 6 samples.

Results

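The adrenomedullin and calcitonin peptide system was followed in the oviduct of early pregnant mice through 8 genes, chosen by symbol out of 55363 gene symbols in the deposited tables. They are 4 peptide genes (Adm, Adm2, Calca and Calcb), the receptor gene Calcrl and the genes of its 3 partner proteins (Ramp1, Ramp2 and Ramp3). All 8 symbols were found. RNA came from whole oviducts of female mice aged 6 to 8 weeks, mated with fertile males and killed on gestational day 3, with the vaginal plug counted as day 1. The Mettl3 f/f genotype had 3 libraries and Mettl3 d/d also had 3. The gene Mettl3 encodes the enzyme subunit that writes N6-methyladenosine (m6A) on RNA. By convention, f/f denotes the loxP-flanked gene and d/d the deleted one. The sources used here give neither the Cre driver, nor its cells, nor the removed exons, nor do they state that each replicate was a separate animal.

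Adrenomedullin (Adm), intermedin (Adm2) and the calcitonin gene-related peptides (CGRP, from Calca and Calcb) are related amidated peptides. They act through the calcitonin receptor-like receptor (Calcrl), a class B G protein-coupled receptor that reaches the cell surface only with a receptor activity-modifying protein (RAMP). With RAMP1 it forms the CGRP receptor, and with RAMP2 or RAMP3 an adrenomedullin receptor. Signalling runs mainly through Gs and cyclic AMP. The peptides widen blood vessels and relax smooth muscle. In studies of rat and human oviduct, adrenomedullin was linked to ciliary beating and muscle contraction. Calca also yields calcitonin by alternative splicing, which a value per gene cannot separate from CGRP.

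Values are FPKM, fragments scaled to transcript length and to sequencing depth, so levels can be set side by side between genes. The genotype change of a gene is its mean log2(FPKM + 1) in d/d less that in f/f. Changes were tested with limma over 15438 features with a mean of at least 1 FPKM. A gene is said to have risen or fallen only where the Benjamini-Hochberg adjusted p over all these features was under 0.05. Low values implied 16700000 to 17900000 fragments per library. Mitochondrially encoded features held 3.61% to 5.70% of all FPKM in f/f and 6.50% to 9.70% in d/d. Beyond a rescaling of libraries to nuclear protein-coding FPKM, their part in the results was not tested. Mettl3 itself was higher in the libraries labelled d/d, with 11.8, 12.1 and 13.2 FPKM in the f/f libraries against 19.8, 20.3 and 24.5 (limma adjusted p = 0.0145). A value per gene does not show whether an exon is missing, so the labels were not checked by it.

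Adm, Calca and Ramp1 fell in the libraries labelled d/d, by 2.65-fold, 2.87-fold and 2.43-fold in mean FPKM. Calcrl, Ramp2, Ramp3 and Calcb did not pass the test. Adm2 was too low for it and stood at 0.515 to 0.786 FPKM in d/d against 0 to 0.109 in f/f. Thus 3 of 7 tested genes were called, all lower. Over all features 11% were called, 4.97% lower and 6.04% higher. The 2 genotypes did not overlap in 3 of the 7 tested genes, all lower. Over all features tested, 35.6% did not overlap, 17.4% lower and 18.1% higher in d/d. In whole tissue, fewer cells of a type and less RNA per cell cannot be told apart.

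**Figure D1:**
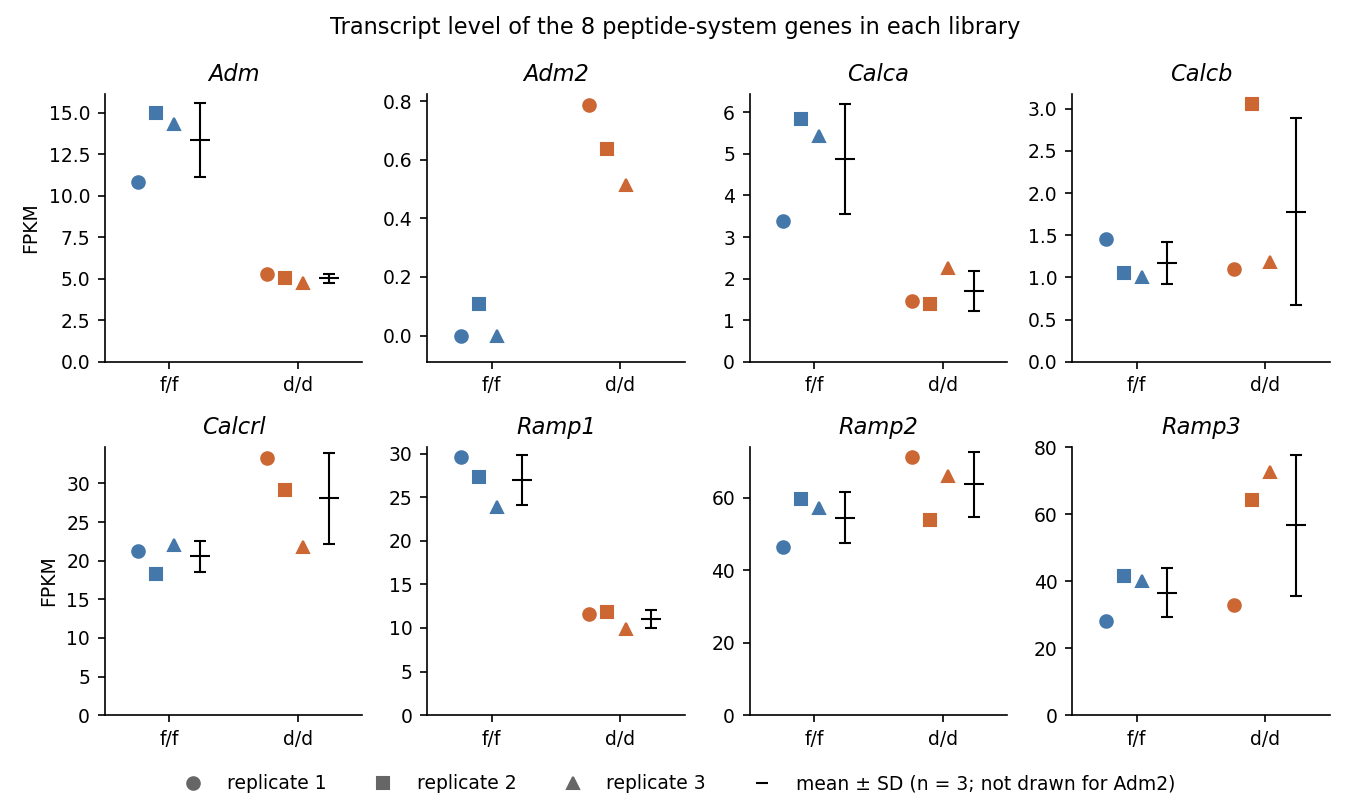
FPKM of each of the 8 genes in the 3 f/f libraries (blue) and the 3 d/d libraries (orange), 1 symbol per replicate number, with the group mean and SD in black except for Adm2. Adm, Calca and Ramp1 were lower and Adm2 higher in every d/d library than in every f/f library, and the other 4 genes overlapped.

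The stretches just upstream of the 3 genes that fell are shown because these members were called in the same direction. They are RefSeq promoter windows on GRCm38.p6, cut to the 250 bases before the annotated start and read 5′ to 3′ on the gene's strand. RefSeq windows matched 6 of the 8 genes. Adm is chr7:110627407-110627656 (plus strand), Calca chr7:114636358-114636607 (minus strand) and Ramp1 chr1:91179572-91179821 (plus strand). Capitals mark matches, on either strand, to any of 7 motifs: TGACG (from the cyclic AMP response element), AGAACA (from the steroid receptor element), ACGTG (1 core of hypoxia-inducible factor elements), GCGTG (the other core), TATAAA (the TATA box), CCAAT (the CCAAT box) and GGGCGG (the GC box).
Adm: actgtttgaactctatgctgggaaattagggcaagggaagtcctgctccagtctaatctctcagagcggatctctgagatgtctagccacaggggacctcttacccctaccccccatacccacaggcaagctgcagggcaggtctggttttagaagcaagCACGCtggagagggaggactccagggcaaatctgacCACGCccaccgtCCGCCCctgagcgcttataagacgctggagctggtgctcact
Calca: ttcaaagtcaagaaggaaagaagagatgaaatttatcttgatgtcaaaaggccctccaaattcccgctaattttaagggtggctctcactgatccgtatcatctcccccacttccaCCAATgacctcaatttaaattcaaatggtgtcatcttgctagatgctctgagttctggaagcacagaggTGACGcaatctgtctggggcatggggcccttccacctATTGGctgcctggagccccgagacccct
Ramp1: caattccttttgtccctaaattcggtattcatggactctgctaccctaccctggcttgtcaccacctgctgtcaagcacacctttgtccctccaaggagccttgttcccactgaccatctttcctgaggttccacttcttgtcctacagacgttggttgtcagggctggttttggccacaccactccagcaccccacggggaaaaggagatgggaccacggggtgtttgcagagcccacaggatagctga

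The 3 windows shared none of these motifs. In the Adm window GCGTG matched at 2 places on the opposite strand, from 90 to 86 and from 54 to 50 bases before the start, and GGGCGG at 1. Of 32851 promoter windows of the same length, 28.2% held GCGTG and 32.7% GGGCGG. In the Calca window TGACG lay from 65 to 61 bases before the start, a motif in 17.8% of all windows, and CCAAT matched at 2 places, a motif in 33.8%. The Ramp1 window held 0 of the 7 motifs. AGAACA and TATAAA, found in 16.1% and 12.4% of all windows, and ACGTG, found in 16.6%, had no match in any of the 3. Of the windows not printed, that of Ramp3, which missed the threshold, held GCGTG at 2 places and GGGCGG at 3. That of Calcrl held GGGCGG at 1 place, and that of Adm2 held 0 of the 7 motifs. These matches are descriptions of the letters and not binding sites.

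Because Mettl3 writes m6A, the coding transcripts were also searched for GGACT, a typical form of the sequence in which the mark is found. No m6A was measured. The longest coding transcript of Adm held 5 matches (3.60 per kilobase, at the 98.9th percentile of 21677 genes), that of Ramp2 held 4 (3.40 per kilobase) and that of Ramp1 held 6 (2.58 per kilobase). Calca held 1 (1.01 per kilobase, equal to the median gene to 3 digits) and Ramp3 held 0. Calcb, Adm2 and Calcrl held 2, 2 and 3. The match nearest the stop codon in the 3 genes that fell is shown with 10 bases on each side and the consensus in capitals. It lay 77 and 223 bases before the stop codon in Adm and Calca, and 103 bases after it in Ramp1.
Adm: ctccggtcccGGACTgtggagtcct
Calca: cactggtgcaGGACTatatgcagat
Ramp1: agttagcacaGGACTtgagagtggc

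Among the peptides, Adm was the most abundant and fell. Adm (ENSMUSG00000030790; GRCm38 chromosome 7, 110627661 to 110629820, plus strand) encodes the precursor of adrenomedullin. It measured 10.8, 15.0 and 14.3 FPKM in replicates 1 to 3 of f/f, against 5.31, 5.05 and 4.78 in replicates 1 to 3 of d/d. The d/d libraries lay close together, well below the lowest f/f library. The means were 13.4 ± 2.23 and 5.05 ± 0.265 FPKM (SD, n = 3 each). The log2 change was -1.24 (SE 0.15, 95% interval from -1.60 to -0.88, limma adjusted p = 0.00856), lower than in all but 2.36% of features tested. The call held without each single library (limma adjusted p from 0.00450 to 0.0461). The antisense model Gm28863 spans Adm on the other strand and was at 0 FPKM in 5 libraries and 0.345 in f/f replicate 2.

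Calca, the gene of alpha-CGRP and calcitonin, also fell. Calca (ENSMUSG00000030669; chromosome 7, 114631478 to 114636357, minus strand) measured 3.38, 5.83 and 5.44 FPKM in replicates 1 to 3 of f/f, against 1.46, 1.38 and 2.26 in replicates 1 to 3 of d/d. Within f/f, replicate 1 was the lowest, and it still exceeded every d/d library. The means were 4.88 ± 1.32 and 1.70 ± 0.486 FPKM (SD, n = 3 each), with a log2 change of -1.11 (SE 0.24, 95% interval from -1.68 to -0.54, limma adjusted p = 0.0336). The call held without f/f replicate 1 (limma adjusted p = 0.0185) and was lost on omitting replicate 2 (0.126) or 3 (0.110) of f/f or replicates 1, 2 or 3 of d/d (0.0872, 0.0976 and 0.0578). The change then ran from -0.99 to -1.25.

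Sensory nerves and neuroendocrine cells are known sources of CGRP elsewhere, and markers of both were read. Nerve cell bodies outside the oviduct were not sampled, so marker transcripts do not measure nerve supply. The 12 markers of peripheral nerve and glia summed to 22.8 to 26.4 FPKM in f/f and 13.6 to 17.8 in d/d. Of the 4 tested 0 passed, the sensory neuron channel gene Scn10a was at 0 FPKM in 5 libraries, and Trpv1 was at most 0.0376 FPKM in f/f and ran from 0.0997 to 0.443 in d/d. The 7 neuroendocrine markers summed to 1.61 to 3.21 FPKM in f/f and 0.820 to 1.01 in d/d. Of these 1 was tested and 0 passed. Both sums were lower in every d/d library than in every f/f library. The highest f/f means of the nerve list were those of Uchl1 (8.88 FPKM) and S100b (8.03), both above Calca (4.88). In d/d these 2 markers averaged 3.59 and 4.47 FPKM. Most of the neuroendocrine sum came from the synaptic vesicle gene Syp. The neuronal tubulin gene Tubb3 went the other way, at 0.105, 0.315 and 0.230 FPKM in the f/f libraries, against 0.830, 1.61 and 1.11 in the d/d libraries. The part of these cells in the fall of Calca was not tested.

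Calcb, the gene of beta-CGRP next to Calca (ENSMUSG00000030666; chromosome 7, 114718643 to 114723365, plus strand), overlapped between genotypes. It measured 1.46, 1.05 and 1.01 FPKM in the f/f libraries, against 1.10, 3.06 and 1.19 in the d/d libraries. One library, d/d replicate 2, stood above the rest. The log2 change was 0.29 (95% interval from -0.44 to 1.03, limma adjusted p = 0.564), and -0.01 without that library. Calca and Calcb transcripts share runs of up to 61 identical bases, and 0.734% of the 50-base stretches of Calca occur unchanged in Calcb. Stretches with mismatches were not counted, and how many reads could be split between them was not tested. Their sum was 4.84, 6.88 and 6.44 FPKM in the f/f libraries, against 2.56, 4.44 and 3.45 in the d/d libraries, without overlap.

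Adm2, the gene of intermedin (ENSMUSG00000054136; chromosome 15, 89322720 to 89324731, plus strand), was listed at 0 in f/f replicates 1 and 3 and at 0.109 FPKM in f/f replicate 2. In d/d replicates 1 to 3 it was at 0.786, 0.637 and 0.515 FPKM. All 3 d/d libraries were above all 3 f/f libraries, and 1 fragment was worth 0.0544 to 0.0581 FPKM. The values correspond to 0, 2 and 0 fragments in f/f, against 14, 11 and 9 in d/d, each within 0.0392 of a whole number. Over the libraries, 2 fragments stood against 34. Taken per fragment sequenced, this was a ratio of 17.6 with an exact 95% interval from 4.52 to 152 that covers counting error only. The exact permutation test over the 6 libraries gave a two-sided p of 0.1, the smallest that 3 against 3 allows. Zeros in these tables can be failed estimates: Ide, a broadly expressed protease gene, was listed at 0 in all 6 libraries.

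Adm led the peptide genes in both genotypes. In f/f, every Adm value lay above every Calca value, every Calca value above every Calcb value and every Calcb value above Adm2. In d/d, Adm was again above the rest, while Calca (1.38 to 2.26 FPKM) and Calcb (1.10 to 3.06 FPKM) overlapped. The Adm to Calca ratio within a library was 3.21, 2.57 and 2.63 in the f/f libraries, against 3.63, 3.65 and 2.11 in the d/d libraries, and the genotypes overlapped in it.

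**Figure D2:**
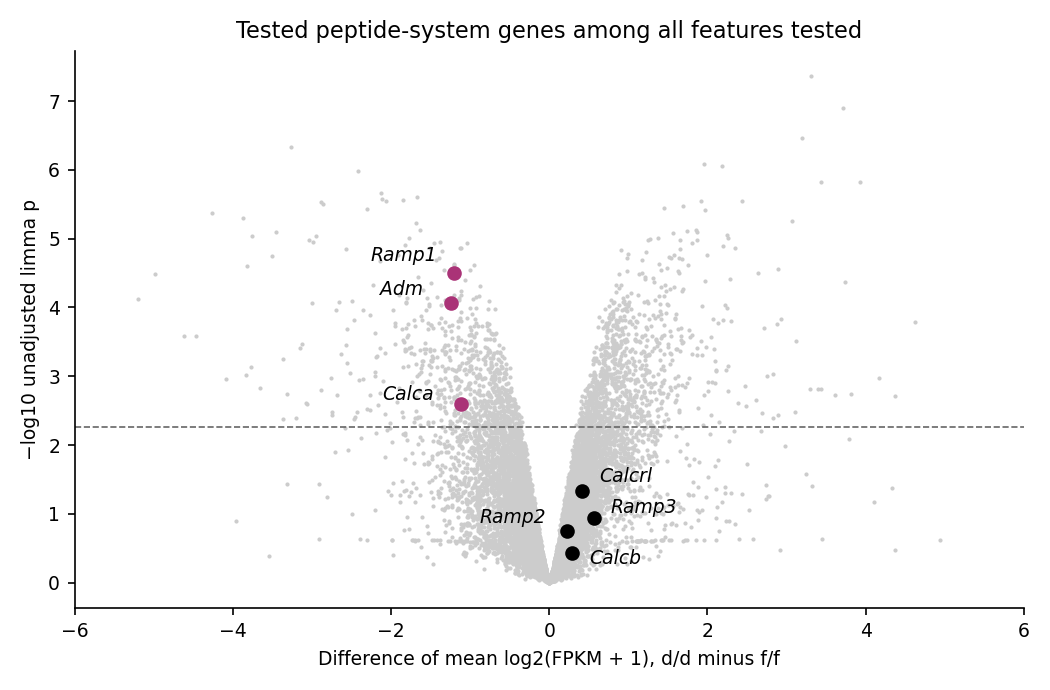
Change in log2(FPKM + 1), d/d minus f/f (x axis), against the −log10 of the unadjusted limma p (y axis) for 15438 features (grey, those within 6 of 0 on the x axis) and the 7 tested peptide-system genes. Ramp1, Adm and Calca (purple) lay above the dashed line of the last feature with an adjusted p under 0.05, and the other 4 genes (black) below it.

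The receptor gene Calcrl (ENSMUSG00000059588; chromosome 2, 84330626 to 84425411, minus strand) was not lower in d/d. It measured 21.3, 18.3 and 22.1 FPKM in replicates 1 to 3 of f/f, against 33.3, 29.2 and 21.7 in replicates 1 to 3 of d/d. Of the d/d libraries, replicate 3 lay within the f/f range and the other two above it. The means were 20.6 ± 2.00 and 28.1 ± 5.88 FPKM (SD, n = 3 each), and the log2 change of 0.42 (95% interval from 0.01 to 0.82) missed the threshold after adjustment (limma adjusted p = 0.162).

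Ramp1, whose product turns the receptor into the CGRP receptor, fell. Ramp1 (ENSMUSG00000034353; chromosome 1, 91179822 to 91225196, plus strand) measured 29.6, 27.3 and 23.9 FPKM in replicates 1 to 3 of f/f, against 11.6, 11.8 and 9.87 in replicates 1 to 3 of d/d. The lowest f/f library was above the highest d/d library by more than the range within either group. The means were 26.9 ± 2.86 and 11.1 ± 1.04 FPKM (SD, n = 3 each). The log2 change was -1.21 (SE 0.12, 95% interval from -1.51 to -0.91, limma adjusted p = 0.00539). The call held without each single library (limma adjusted p from 0.00815 to 0.0380).

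Ramp2 and Ramp3, whose products give adrenomedullin receptors, did not fall with Ramp1. Ramp2 (ENSMUSG00000001240; chromosome 11, 101246028 to 101259546, plus strand) measured 46.4, 59.6 and 57.3 FPKM in the f/f libraries, against 71.4, 53.8 and 66.1 in the d/d libraries. The groups overlapped (a log2 change of 0.22 with a 95% interval from -0.13 to 0.58, limma adjusted p = 0.362). Ramp2 overlaps Vps25 on the same strand over 5840 bases, and Vps25, an endosomal sorting gene, was at 73.8 to 84.1 FPKM over the 6 libraries, so reads of the overlap could be assigned to either.

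Ramp3 (ENSMUSG00000041046; chromosome 11, 6658521 to 6677475, plus strand) measured 28.2, 41.5 and 40.2 FPKM in the f/f libraries, against 32.9, 64.4 and 72.8 in the d/d libraries. Replicate 1 was the lowest library of each genotype, and the other two d/d libraries were above all f/f libraries. The log2 change was 0.56 (95% interval from -0.17 to 1.30, limma adjusted p = 0.275). Without both libraries numbered 1 it was 0.73 and passed (limma adjusted p = 0.0281). The pseudogene Gm11978 overlaps its start on the other strand and was at 0 FPKM in 5 libraries and 0.0541 in f/f replicate 2.

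**Figure D3:**
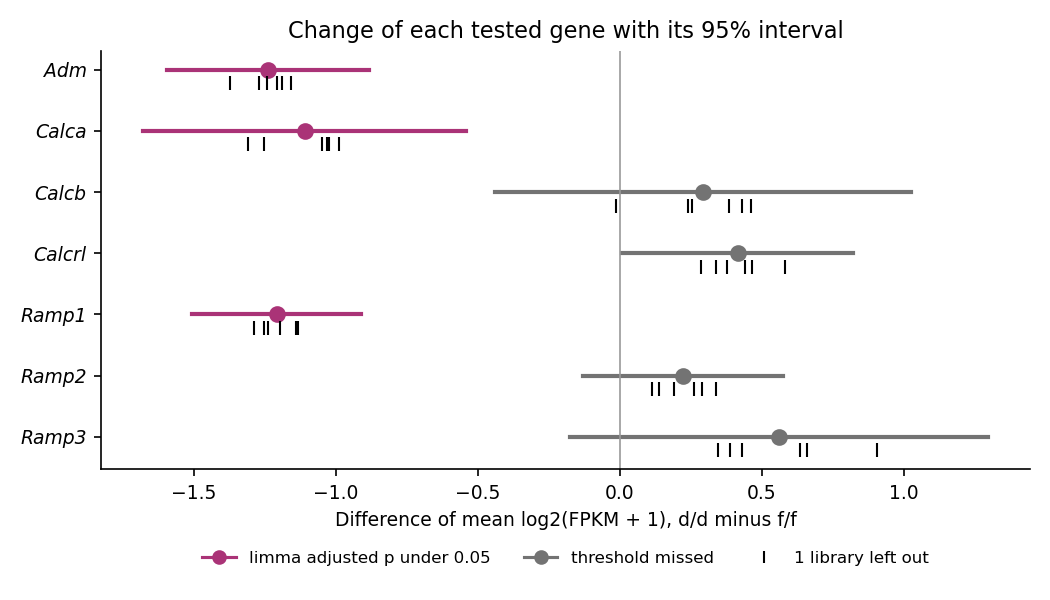
Mean log2(FPKM + 1) of d/d less that of f/f, for the 7 tested genes (points) with limma 95% intervals (lines), and the value with each single library left out (black ticks). Adm, Calca and Ramp1 (purple) lay between -1.37 and -0.99 with 1 library left out, and the 4 genes that missed the threshold (grey) between -0.01 and 0.90.

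The proportions of the 3 Ramp transcripts within a library do not depend on how libraries are scaled. Ramp1 made up 28.4%, 21.2% and 19.7% of the summed Ramp FPKM in the f/f libraries, against 9.97%, 9.07% and 6.64% in the d/d libraries. The Ramp1 share was lower in all 3 d/d libraries than in any f/f library, by 14.6 percentage points on average. The exact permutation test gave a two-sided p of 0.1, the smallest possible here, and 0.3 after adjustment over the 3 shares. Ramp3 held 27.1%, 32.3% and 33.1% in the f/f libraries, against 28.4%, 49.5% and 48.9% in the d/d libraries (exact permutation p = 0.3, adjusted 0.45). Ramp2 held 44.6%, 46.4% and 47.2% in the f/f libraries, against 61.6%, 41.4% and 44.4% in the d/d libraries (exact permutation p = 1). The d/d libraries therefore differed among themselves: Ramp2 led in replicate 1, and Ramp3 led in replicates 2 and 3.

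Set against the receptor in the same library, Ramp1 was at 1.39, 1.49 and 1.08 times Calcrl in the f/f libraries, against 0.347, 0.404 and 0.455 times Calcrl in the d/d libraries. In f/f, each library held more Ramp1 than Calcrl FPKM, and in d/d each held less. The ratio of Ramp2 to Calcrl ran from 2.18 to 3.26 in f/f and from 1.84 to 3.04 in d/d. That of Ramp3 to Calcrl ran from 1.32 to 2.27 and from 0.988 to 3.35. The summed Ramp to Calcrl ratio on the log2 scale was 2.52 ± 0.266 in f/f against 2.24 ± 0.495 in d/d (SD; n = 3 per genotype, exact permutation p = 0.4).

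**Figure D4:**
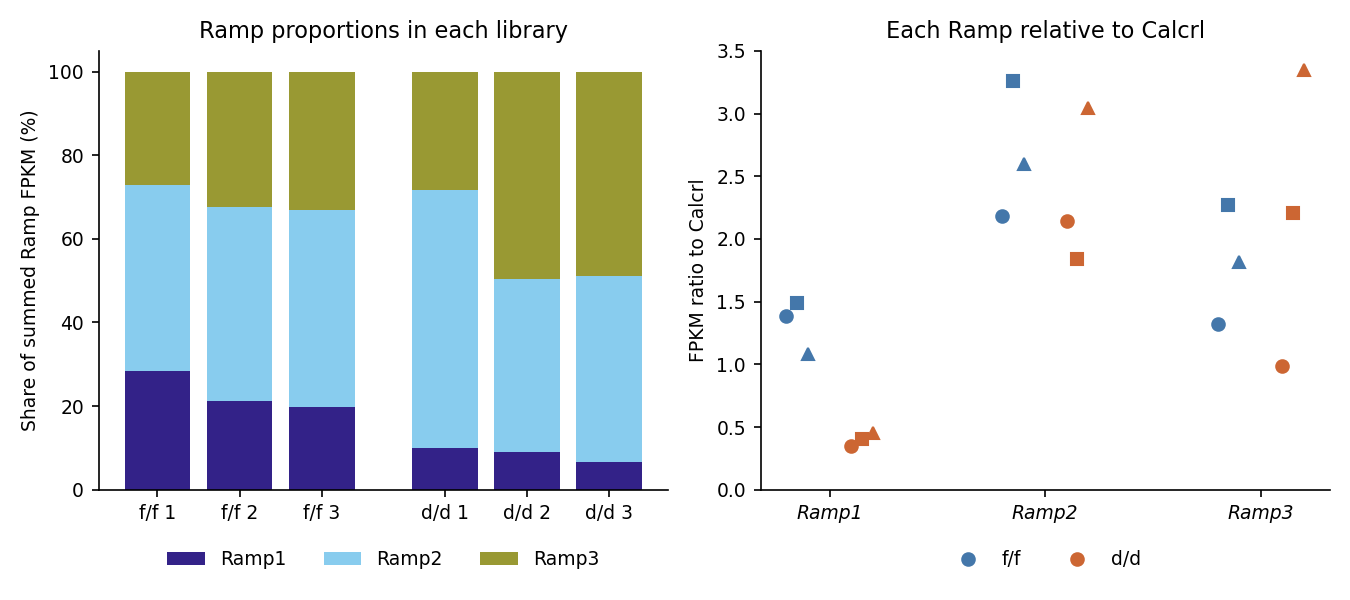
Left, the percent of summed Ramp FPKM held by Ramp1, Ramp2 and Ramp3 in each of the 6 libraries. Right, the FPKM of each Ramp divided by that of Calcrl in f/f (blue) and d/d (orange), with circles, squares and triangles for replicates 1 to 3; the Ramp1 ratio was 1.08 to 1.49 in f/f and 0.347 to 0.455 in d/d.

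By level, the receptor genes kept a different order in each genotype. In f/f all Ramp2 values lay above all Ramp3 values, Ramp3 and Ramp1 overlapped, and all Ramp1 values lay above all Calcrl values. In d/d Ramp2 and Ramp3 overlapped, Ramp3 and Calcrl overlapped at the edge (32.9 FPKM for the lowest Ramp3 and 33.3 for the highest Calcrl), and Ramp1 was below Calcrl in every library.

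Cell types that carry these receptors were read from their markers. Over all features tested, 4.97% were called lower and 6.04% higher. Calcrl and Ramp2 are known from blood and lymphatic endothelium. Of 12 blood endothelial markers 1 rose, Vwf, and 0 fell, and their summed level was 303.9 to 387 FPKM in f/f and 336 to 494 in d/d. The Vwf call was lost without f/f replicate 2 (limma adjusted p = 0.0512). Of 8 lymphatic markers 5 were tested, and Lyve1 fell, a call lost without any of f/f replicates 2 and 3 and d/d replicates 1 and 3. The other lymphatic markers tested went the other way and missed the threshold. Their log2 changes were 0.68 for Flt4, 1.63 for Ccl21a, 0.42 for Mmrn1 and 0.44 for Reln. The median log2 change of the lymphatic list was 0.44. The lymphatic sum was 26.0 to 36.1 FPKM in f/f and 19.2 to 62.7 in d/d, and Pdpn was listed at 0 in all 6 libraries. Ramp1 is known from smooth muscle and nerve. Of 10 smooth muscle and pericyte markers 0 rose and Des and Rgs5 fell, and the sum, 2064 to 4740 FPKM in f/f and 2539 to 4050 in d/d, overlapped. Without single libraries, Rgs5 lost its call in all 6 cases and Des in 5.

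Among the other cell types, multiciliated markers summed to 81.1 to 293 FPKM in f/f and 29.3 to 147 in d/d, with 1 of 10 called, lower (Rfx2). Secretory epithelial markers summed to 4738 to 6246 and 3125 to 5553 FPKM, with 2 of 8 higher (Epcam and Sprr2f) and 1 lower (Krt18). Stromal fibroblast markers summed to 3068 to 3419 and 2907 to 4311 FPKM, with 1 of 8 higher (Lum) and 1 lower (Pdgfra). Of these 6 calls, Sprr2f alone was kept without each single library. Macrophage markers, 9 of 10 of which rose, summed to 382 to 496 FPKM in f/f and 1075 to 1427 in d/d. The macrophage sum is the only one of the 9 in which every d/d library was above every f/f library. With single libraries left out, 3 to 9 of the 9 macrophage calls were kept. The count was 3 on omitting replicate 2 of either genotype and 4 on omitting replicate 3 of f/f. The part of any of these cell types in the changes above was not tested.

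In a list of genes set around the wider calcitonin family, 3 were tested and 1 was called, higher in d/d. Over all features 11% were called, and 6.04% were called higher. The call was not in a peptide or receptor gene of the family itself. Gpr182, an endothelial receptor gene related to chemokine receptors, rose from a mean of 1.23 ± 0.246 FPKM to one of 3.83 ± 0.790 (SD; n = 3 per genotype, log2 change 1.11, limma adjusted p = 0.0218). That call was lost on omitting replicate 2 or 3 of f/f or replicate 1 or 3 of d/d (limma adjusted p up to 0.0873). The list held 5 genes. Ackr3, a chemokine receptor gene, was at 4.76 to 14.2 FPKM in f/f and 9.52 to 13.6 in d/d (limma adjusted p = 0.448). Crcp, the CGRP receptor component, was at 14.6 to 21.6 FPKM in f/f and 16.2 to 16.5 in d/d (limma adjusted p = 0.689). The calcitonin receptor gene Calcr and the amylin gene Iapp were listed at 0 in all 6 libraries.

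Among genes that make and break the peptides there were 3 calls, all higher, where 6.04% of all features were called higher. Of 9 processing genes 7 were tested, 2 rose and 0 fell, with a median log2 change of 0.22 against -0.01 over all features tested. Scg5, a secretory granule gene, averaged 1.74 FPKM in f/f against 0.751 in d/d and missed the threshold (limma adjusted p = 0.134). Pcsk6, a proprotein convertase, measured 3.11, 2.11 and 2.42 FPKM in the f/f libraries, against 9.43, 7.45 and 9.13 in the d/d libraries. It rose 3.41-fold (limma adjusted p = 0.00825) and kept the call without each single library. Pam, the enzyme that amidates the peptides at their end, rose 1.31-fold, from a mean of 39.6 ± 1.28 FPKM to one of 51.8 ± 2.73 (SD; n = 3 per genotype, limma adjusted p = 0.0448), and lost the call without any single library. Among 5 genes of peptide breakdown and binding, 4 were tested and Ece2, an endothelin-converting enzyme relative, rose 2.69-fold to 3.66 ± 0.254 FPKM (SD, n = 3; limma adjusted p = 0.0178). That call held only without f/f replicate 1 when 1 library was left out.

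Downstream, 34 genes of Gs, cyclic AMP and receptor desensitisation were listed and 32 tested. Of these 1 was called, where 11% of all features were called. Arrb2, the gene of an arrestin that takes receptors off signalling, rose 1.80-fold, from a mean of 22.5 ± 4.43 FPKM to one of 40.6 ± 4.73 (SD; n = 3 per genotype, limma adjusted p = 0.0254), and 0 fell. Its call held without f/f replicate 1 and was lost without any other single library (limma adjusted p up to 0.0859). The list had a median log2 change of -0.19. Adcy8, of the same list, measured 0.310, 2.77 and 3.22 FPKM in the f/f libraries, against 0.0145, 0.0303 and 0.0534 in the d/d libraries. It missed the threshold (limma log2 change -1.41, adjusted p = 0.101). Gnas, which encodes the Gs alpha subunit and was the most abundant of the list, averaged 791 ± 41.7 FPKM in f/f against 853 ± 87.2 in d/d (SD; n = 3 per genotype, limma adjusted p = 0.659).

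Of 13 other class B receptor genes 4 were tested, with 1 rise and 1 fall, where 11% of all features were called. Adcyap1r1, the PACAP receptor gene, measured 11.9, 12.5 and 11.6 FPKM in the f/f libraries, against 5.21, 5.46 and 4.13 in the d/d libraries. It fell 2.43-fold (limma adjusted p = 0.00839) and kept the call without each single library. Pth1r, the parathyroid hormone receptor gene, rose 1.54-fold (limma adjusted p = 0.0308), a call lost without any single library. Of 10 other vasoactive peptide genes 2 were tested and 0 passed. The most abundant over all 6 libraries, Tac1, which encodes substance P, measured 3.26, 0.954 and 0.246 FPKM in the f/f libraries, against 0, 1.76 and 1.11 in the d/d libraries.

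Adm is a known target of the hypoxia-inducible factors, and 16 other targets were listed and tested. Of these 5 rose and 0 fell, with a median log2 change of 0.42, where 6.04% of all features were called higher. Without the filter on low values, 1 of the 5 calls was kept. Pfkfb3, a glycolytic regulator gene, averaged 50.5 FPKM in f/f against 26.9 in d/d and missed the threshold (limma log2 change -0.83, adjusted p = 0.1002). Bhlhe40, a transcriptional repressor gene, measured 12.1, 10.5 and 9.69 FPKM in the f/f libraries, against 27.2, 25.5 and 26.3 in the d/d libraries, and it rose 2.44-fold (limma adjusted p = 0.00412). Car9, a carbonic anhydrase gene, rose 3.00-fold, the hexokinase gene Hk2 2.63-fold, the collagen prolyl hydroxylase gene P4ha1 1.54-fold and the oxygen sensor gene Egln1 1.38-fold. Only Bhlhe40 of the 5 kept its call without each single library. Of the 5, 3 kept it without f/f replicate 1, 2 on omitting replicate 3 of f/f or replicate 1 or 2 of d/d, and 1 on omitting replicate 2 of f/f or 3 of d/d.

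**Figure D5:**
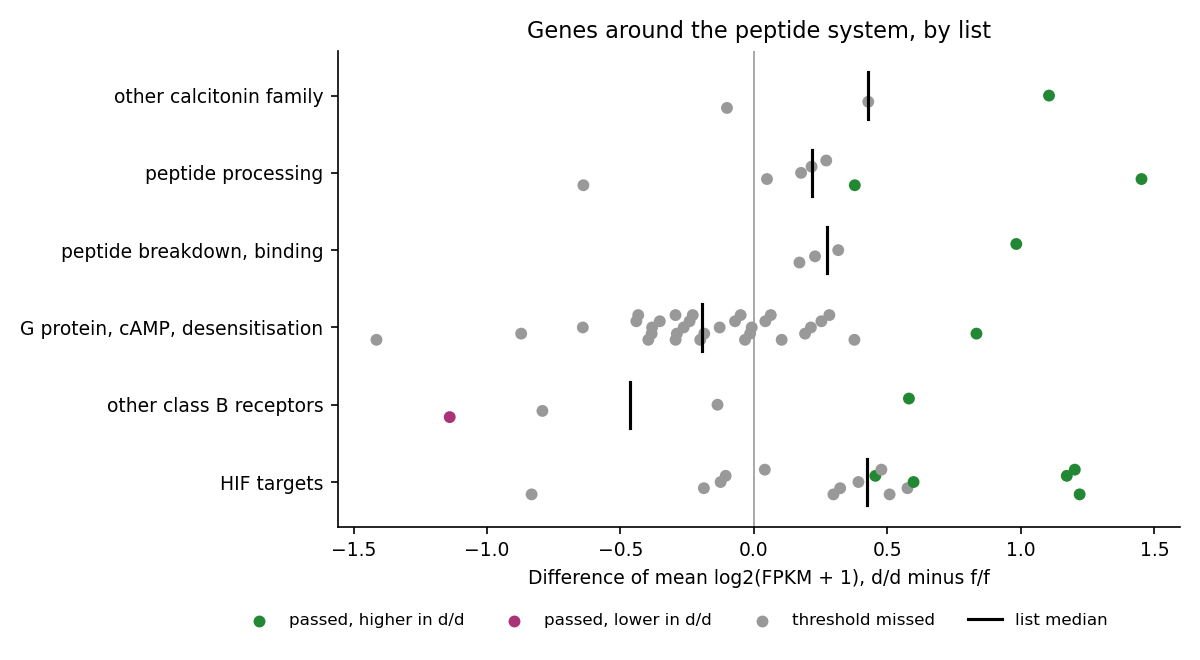
Mean log2(FPKM + 1) of d/d less that of f/f, for each tested gene of 6 lists around the peptide system (points), coloured by whether the limma adjusted p was under 0.05, with the list median as a black bar. The hypoxia-inducible factor (HIF) targets held 5 genes higher in d/d and 0 lower, and the class B receptors 1 of each.

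Some genes followed the members closely over the 6 libraries. Likeness was the root mean square difference of log2(FPKM + 1) after centring each gene on its own mean. It was taken for the 5 members that spanned more than 1 on that scale. The search covered the protein-coding genes tested other than the members. Symbols that begin with Gm and a digit, Mir, Snor or Rn, or end in Rik, were left out. Nearest to Adm were Etnk1 (0.0724), Btbd19 (0.0848) and Socs7 (0.0974). Etnk1, an ethanolamine kinase gene, measured 75.1, 97.8 and 101 FPKM in the f/f libraries, against 34.8, 37.7 and 33.8 in the d/d libraries. Nearest to Calca were Fra10ac1 (0.0792), Ippk (0.0962) and the aquaporin gene Aqp11 (0.117).

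Nearest to Ramp1 were Zfp950 (0.0815), Adcyap1r1 (0.0892) and Emp2 (0.0903). Adcyap1r1 thus appeared both as the class B receptor gene that fell and as one of the 3 genes most like Ramp1. Nearest to Ramp3 were Clvs2 (0.117), the semaphorin gene Sema3a (0.118) and Itgbl1 (0.127), which like Ramp3 were highest in d/d replicates 2 and 3. Nearest to Calcb were Ankrd35 (0.0699), Il2rb (0.0828) and Mettl6 (0.0851), all highest in d/d replicate 2. Likeness over 6 libraries describes the pattern alone.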

How the data were processed

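The members and gene lists were chosen with earlier results of these data known. The deposited values, 1 per Ensembl gene and library, were read as FPKM made by the authors. HISAT2 2.2.1, Cufflinks 2.2.1 and the builds mm9 and mm10 appear per the submitters' processing notes, which state no roles. The unit is inferred from Cufflinks and from decimals whose library totals run from 588802 to 751618. The sources used here give no annotation, filter or strand. Rows sharing a symbol (114 symbols) were summed. Coordinates are from GENCODE M21 (GRCm38), which held 99.4% of the 55483 identifiers.

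Features with a mean of at least 1 FPKM entered limma 3.58.1 (R 4.3.3) as log2(FPKM + 1) (variance trend, genotype as the only term, two-sided, Benjamini-Hochberg). This scale understates changes of low genes. P-values reflect only how these libraries vary, possibly for technical reasons. No count test was run. Alternatives were a pseudocount of 0.1, a filter of 0.1 FPKM or none, quantile, TMM and nuclear protein-coding rescaling, a replicate block, and leaving out libraries. The value of 1 fragment came from single-transcript genes over 1500 nt under 0.1 FPKM, with 270 nt taken off the length, and 91.6% to 95.2% of the genes at 1 fragment lay within 1% of it. Within-library ratios used exact permutation tests. Tested on simulated data with 15438 features, of which 200 were changed, the fit found 46.0% of genes given a log2 change of 1, with 4.82% false calls. In the real data 1701 features were called, so the share found there need not hold here.

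Named were all 8 members, list genes past the threshold or else the most abundant of the list, marker lists by counts and sums, and the 3 most alike genes per member. Ide, Vps25, Gm28863, Gm11978, Calcr, Iapp, Ackr3, Scn10a, Trpv1, Uchl1, S100b, Pdpn, Vwf, Lyve1, Des, Rgs5, Syp, Tubb3, Scg5, Pfkfb3, the other called markers, Crcp and Gnas were named after their values were seen. Car9 and Dnaic1 replaced the symbols first listed for these genes. Flt4, Ccl21a, Mmrn1, Reln and Adcy8 were also named after their values were seen.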

Additional observations from a re-analysis of the deposited data

How the results depend on the processing

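Adm, Calca and Ramp1 were lower and Calcrl, Ramp2 and Ramp3 higher in d/d under each of the 14 alternatives run, and Adm2 was higher under the 9 run for it. The call of Calca was lost without the filter (log2 change -1.11, limma adjusted p = 0.0749) and with quantile normalization (-1.06, 0.0513). With nuclear protein-coding rescaling, Adm (-1.27, limma adjusted p = 0.00704), Calca (-1.13, 0.0267) and Ramp1 (-1.24, 0.00861) kept their calls. Whether the replicate numbers pair the libraries could not be decided from 3 libraries per genotype. Deviations of same-numbered libraries correlated at -0.220, -0.0585 and 0.0027 across features. Those of libraries with different numbers correlated at -0.276 to 0.282. With the replicate number as a block, the calls of Adm (-1.24, limma adjusted p = 0.0511) and Calca (-1.11, 0.0757) were lost, Ramp1 kept its call (-1.21, 0.0329), and 1 member, 1 of the 5 hypoxia-inducible factor targets and 276 features were called. Called features numbered 1107 without the filter. Adm2 differed by 0.610 FPKM, and by 0.67 on the log2 scale without the filter or with a minimum of 0.1 FPKM, which it reached only through d/d, so that these fits give its change no support. Without both libraries numbered 1, Ramp3 passed (0.73). Calcb (0.29) turned to -0.0144 without d/d replicate 2 and was 0.56 without both libraries numbered 1.

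With each library left out in turn, the change ran from -1.37 to -1.16 for Adm, -1.31 to -0.99 for Calca, -0.01 to 0.46 for Calcb, 0.29 to 0.58 for Calcrl, -1.29 to -1.14 for Ramp1, 0.11 to 0.34 for Ramp2 and 0.34 to 0.90 for Ramp3, and from 0.540 to 0.675 FPKM for Adm2. From 2 to 3 members and 308 to 1795 features were called. Such fits have 1 residual degree of freedom fewer. The Ramp1 share differed by -16.3 to -11.9 percentage points, Ramp2 by -3.15 to 6.95 and Ramp3 by 7.86 to 18.4, and the log2 ratio of summed Ramp to Calcrl by -0.54 to -0.06. The difference of the Ramp2 share (3.08) turned without d/d replicate 1, without both libraries numbered 1 (-3.91) and as a ratio to Calcrl (-0.336). The cause of these shifts was not tested.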
